A study of Sus scrofa with 6 samples.

Results

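Collagens, laminins and integrins were followed in cultured epithelial cells of the pig endometrium, the inner lining of the uterus. Members were the rows of the deposited expression table whose gene symbol names a collagen, a laminin or an integrin, and the rule matched 28 of 10916 rows. These comprised 8 collagen chains, 4 laminin chains and 14 integrin chains. The other 2 matched by name only: COL4A3BP, a ceramide transfer protein that the reference gene table lists as CERT1, and ITGB1BP1, a cytosolic partner of the integrin β1 tail. A further 5 chains described here had no family symbol in the deposited table and were named through their identifiers in the reference table. They are COL12A1, COL17A1, LAMA3, LAMA4 and ITGB3 (deposited as CD61), and they are counted apart. With them, the chains described make up 10 of the 43 collagen, 6 of the 12 laminin and 15 of the 26 integrin genes that the reference table names. The table holds no value of 0, so a chain that is silent in any library may have no row.

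Each group held 3 libraries of total RNA from primary cultures at passage 3. The exosome group (EXO) received 10 µg per well of vesicles precipitated from boar seminal fluid (its sperm-rich fraction) over 48 h. The control group (CTRL) received no exosomes, and the labels do not say whether its wells received the suspension buffer. Both groups came from slaughterhouse uteri, were released with EDTA and collagenase, and were grown with serum on plates coated with collagen type IA, so all cells met added collagen. The labels do not state that replicates are separate animals or cultures. The p-values therefore rest only on how far the 3 libraries of a group lie apart. In the moderated test (limma), each gene's spread is drawn toward that of genes at a similar level. Either spread may be technical.

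These proteins form and read the extracellular matrix. Fibrillar collagens make the stiff fibres of connective tissue, while collagen IV and laminins build the basement membrane, the sheet on which an epithelium sits. A laminin is a trimer of an α, a β and a γ chain, and integrins are pairs of an α and a β chain that bind matrix outside the cell and the cytoskeleton inside. In the uterus, integrins of the luminal epithelium are known as part of the adhesive surface that an embryo meets at implantation.

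Values are FPKM (fragments per kilobase of transcript, scaled to the mapped fragments of each library), a level per length, and the sequencing depth behind them is unknown. FPKM sums were 690258 to 711250 in EXO and 721273 to 732922 in CTRL libraries. Epithelial markers had 9 of 11 genes in the table, with sums of 11634 to 12814 FPKM in EXO and 13591 to 14022 FPKM in CTRL libraries. CD24, KRT8 and KRT19 led them, and CD24 alone stood at 3107 to 3843 FPKM in EXO and 3928 to 4080 FPKM in CTRL libraries. Of these 9 genes, 6 were lower in EXO at an unadjusted p under 0.05 (limma), against 7.5% of all genes tested. Stromal fibroblast markers had 4 of 11 genes, with sums of 2354 to 2599 FPKM in EXO and 2875 to 3111 FPKM in CTRL libraries. Most of that sum was CD90 (the product of THY1), at 1769 to 1897 FPKM in EXO and 2226 to 2409 FPKM in CTRL libraries. VIM stood at 432.6 to 550.8 FPKM in EXO and 511.3 to 614 FPKM in CTRL libraries, and 7 stromal symbols, among them DCN, LUM, PDGFRA and PDGFRB, matched no row. Smooth muscle had 2 of 7 markers (sums 83.8 to 145.1 FPKM in EXO, 132.5 to 147.4 in CTRL), endothelium 1 of 7 (KDR, 0.97 to 1.16 in EXO, 1.26 to 1.96 in CTRL) and leukocytes 3 of 8 (9.01 to 11.9 in EXO, 9.72 to 11.7 in CTRL). Epithelial and stromal sums were both lower in EXO libraries, and their part in the values below was not tested.

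Integrins held most of the FPKM of the 28 rows. ITGA3, ITGA6 and ITGB1 together made up 74.05% to 75.18% of it in EXO and 74.06% to 74.73% in CTRL libraries. ITGA3, at a mean of 967.1 FPKM over the 6 libraries, was the highest, and it ranked 110 of the 10846 genes tested. Among the chains named through the reference table, COL17A1 stood at 809.7 FPKM (rank 130), far above every collagen that the rule matched. COL17A1 is a membrane-spanning collagen of hemidesmosomes, the rivets between keratin filaments and the basement membrane. The next collagen was COL1A2 at 49.2 FPKM, and COL3A1, COL5A1, COL8A1 and COL18A1 stood between 1.11 and 1.42 FPKM.

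**Figure D1:**
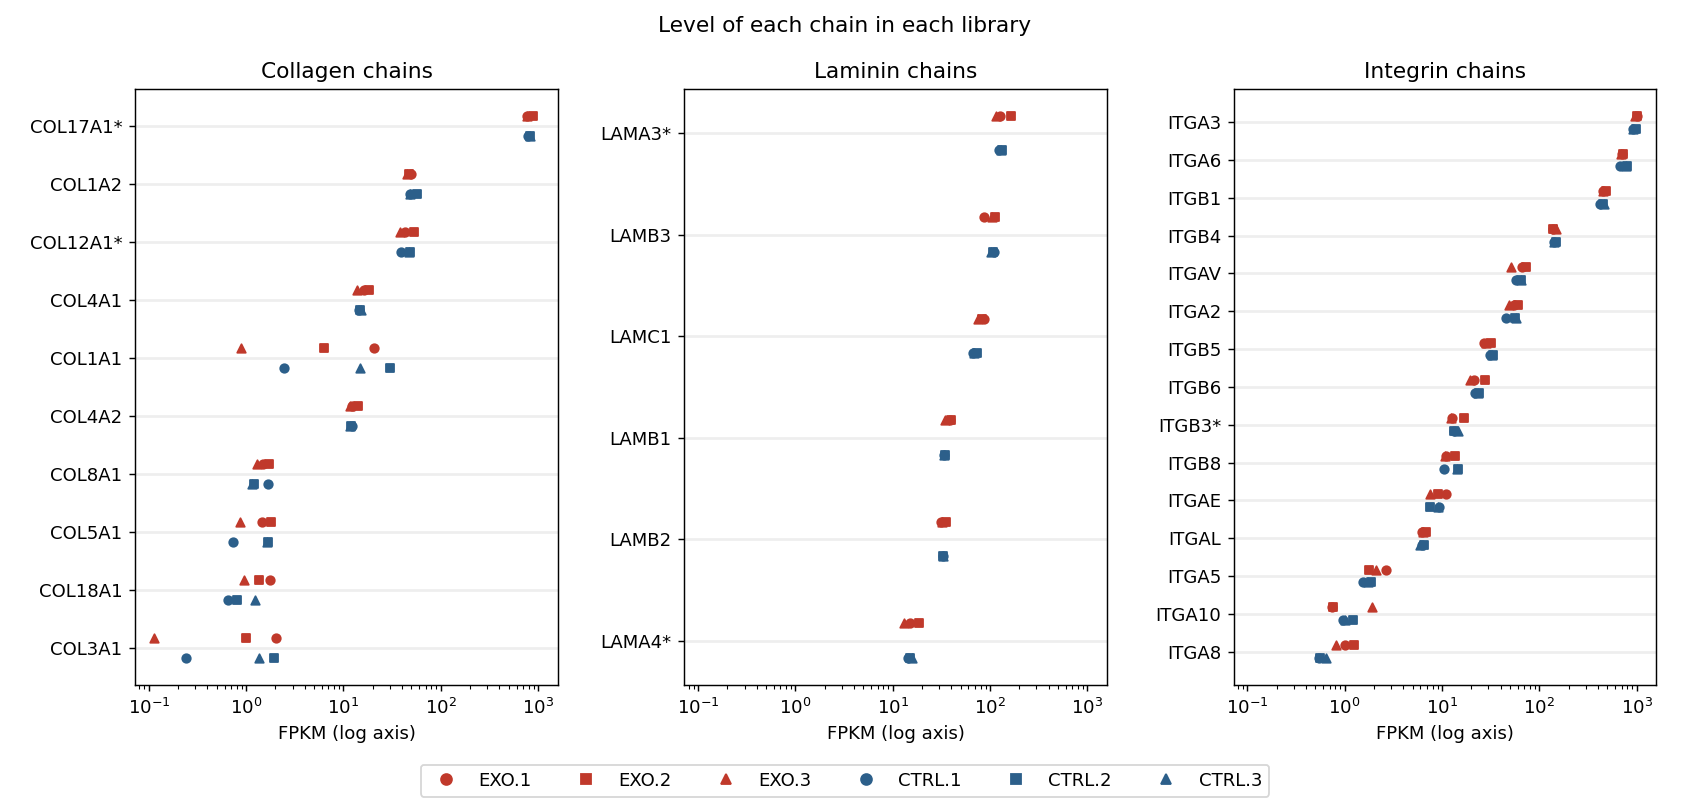
FPKM (log axis) of each collagen, laminin and integrin chain in the 3 exosome-treated (red, upper points) and 3 control libraries (blue, lower points); an asterisk marks chains named through the reference table. Most chains hold their place in all libraries, while COL1A1 runs from 0.887 to 30.0 FPKM and COL3A1 from 0.114 to 2.05 FPKM.

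No collagen, laminin or integrin passed the test of exosome treatment over all genes, which does not show that none changed. With limma (moderated test on log2(FPKM + 1), two-sided, Benjamini-Hochberg over all genes tested), 0 of the 27 members tested passed an adjusted p of 0.05, where 0% of all 10846 genes did. At an unadjusted p under 0.05, 1 member (LAMC1) was higher and 0 were lower, against 5.06% and 7.5% of all genes. The share of members on either side, 1 of 27, lay below the 12.6% of all genes. Members had 16 positive and 11 negative log2 changes, with a median of 0.013, against -0.0023 over all genes tested. For 22 of the 27 members (81.5%) the 95% interval of the log2 change, unadjusted, lay within 0.5 of 0, against 89.3% of all genes tested. The 5 with wider intervals were COL1A1, COL3A1, COL5A1, COL18A1 and ITGA5, all at low or uneven levels. One member, ITGA8, averaged 0.802 FPKM and lay under the filter of a mean of at least 1 FPKM.

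**Figure D2:**
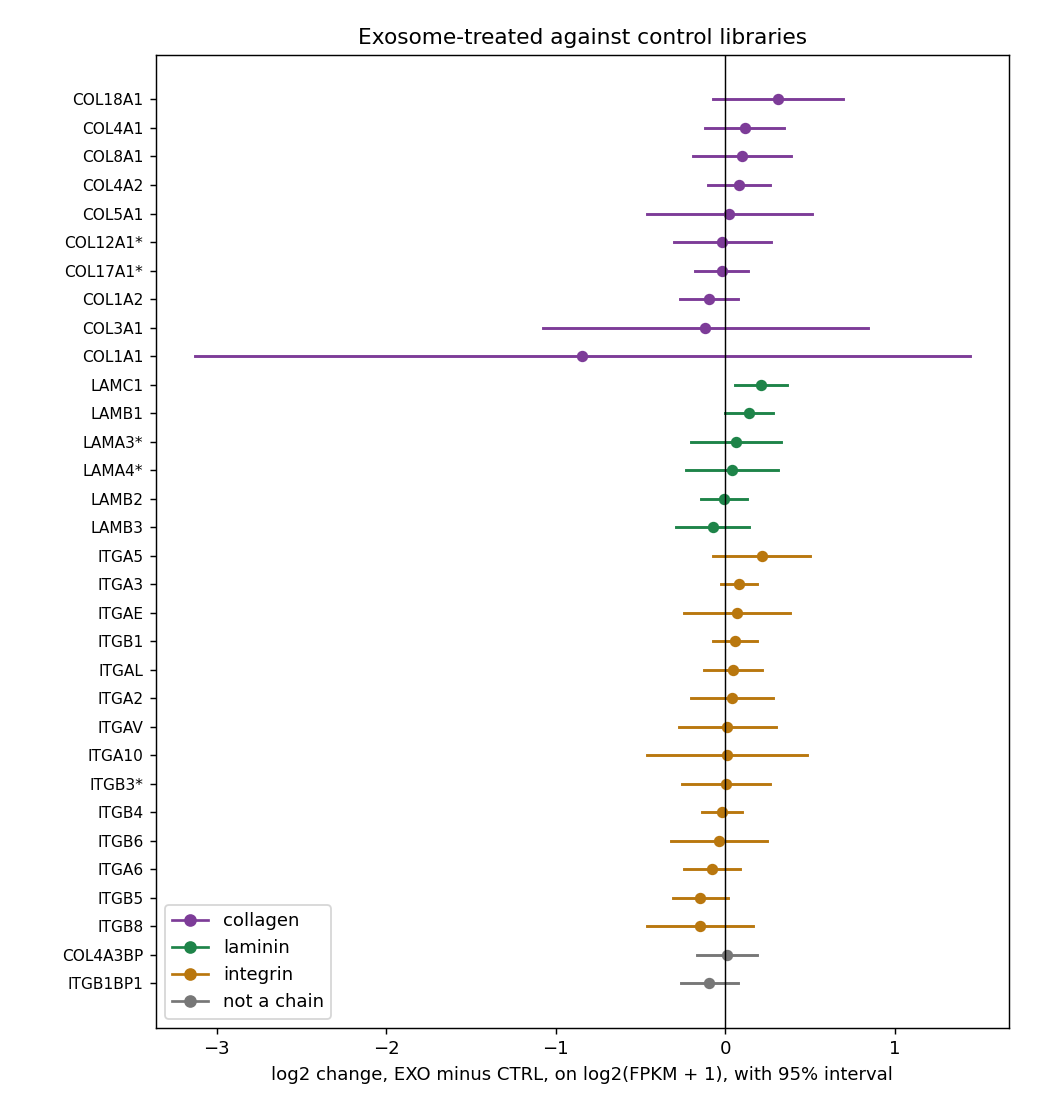
Log2 change of each gene tested, exosome-treated minus control, on log2(FPKM + 1), with its 95% interval (unadjusted, limma), by family; an asterisk marks chains named through the reference table. LAMC1 at 0.21 is the 1 gene whose interval leaves 0, and the interval of COL1A1 runs from -3.13 to 1.44.

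The fibrillar collagens COL1A1, COL3A1 and COL5A1 were the most uneven members on the log2 scale, and the unevenness lay within the groups. COL1A1 (ENSSSCG00000017581), the α1 chain that supplies most of a type I collagen trimer, was at 20.4, 6.27 and 0.887 FPKM in EXO.1, EXO.2 and EXO.3. In CTRL.1, CTRL.2 and CTRL.3 it was at 2.48, 30.0 and 14.7 FPKM. Both groups thus held a library with little COL1A1, EXO.3 and CTRL.1, and the groups overlapped. The highest library stood 33.9-fold above the lowest. The log2 change was -0.84 with an SE of 0.99 (adjusted p = 0.753, limma), and without EXO.3 it was 0.067. On the log2 scale, its SD within groups was 1.69, the third largest among the 10846 genes tested. In bulk RNA, fewer cells of a type and less RNA per cell cannot be told apart.

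COL3A1 (ENSSSCG00000016034), the type III collagen of soft connective tissue, was at 2.05, 0.988 and 0.114 FPKM in the 3 EXO libraries, in the order 1 to 3. The 3 CTRL libraries had 0.239, 1.93 and 1.37 FPKM. Its lows fell in the same libraries as those of COL1A1, EXO.3 and then CTRL.1, and its spread ranked 30 of all genes tested. COL1A1 stood 6.35-fold to 9.96-fold above COL3A1 in EXO and 10.4-fold to 15.5-fold in CTRL libraries, while each gene on its own varied 18.0-fold or more. COL5A1, a minor chain that helps set fibril width, was at 1.461, 1.798 and 0.872 FPKM in EXO.1, EXO.2 and EXO.3, against 0.736, 1.67 and 1.63 FPKM in CTRL.1, CTRL.2 and CTRL.3. EXO.3 and CTRL.1 were again its lowest libraries, with a narrower range of 2.44-fold from lowest to highest. These lows were not particular to fibrillar chains. The same 2 libraries were the lowest for COL4A1, COL12A1, LAMA3, LAMA4, ITGA2, ITGA6, ITGAV, ITGB1, ITGB8 and COL4A3BP. Those genes had smaller ranges, from 1.17-fold (ITGB1) to 1.44-fold (LAMA4). The share of all genes with their lows in these 2 libraries was not counted.

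COL1A2 (ENSSSCG00000015326), the α2 chain that joins COL1A1 in the same trimer, did not share this pattern. It was at 50.0, 47.5 and 45.1 FPKM in EXO.1, EXO.2 and EXO.3, and at 48.5, 56.3 and 48.0 FPKM in CTRL.1, CTRL.2 and CTRL.3. It varied little, and the groups overlapped (log2 change -0.096, adjusted p = 0.618, limma). As a result the ratio of COL1A2 to COL1A1 was 2.45, 7.57 and 50.8 in the EXO libraries and 19.6, 1.88 and 3.27 in the CTRL libraries, so the α2 transcript outnumbered the α1 transcript per length in all 6. On the RefSeq assembly Sscrofa11.1, COL1A1 (chromosome 12, 26379087 to 26397180) lies 109.8 kb from ITGA3 (chromosome 12, 26234769 to 26269327). That neighbour varied only 1.11-fold over the libraries.

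**Figure D3:**
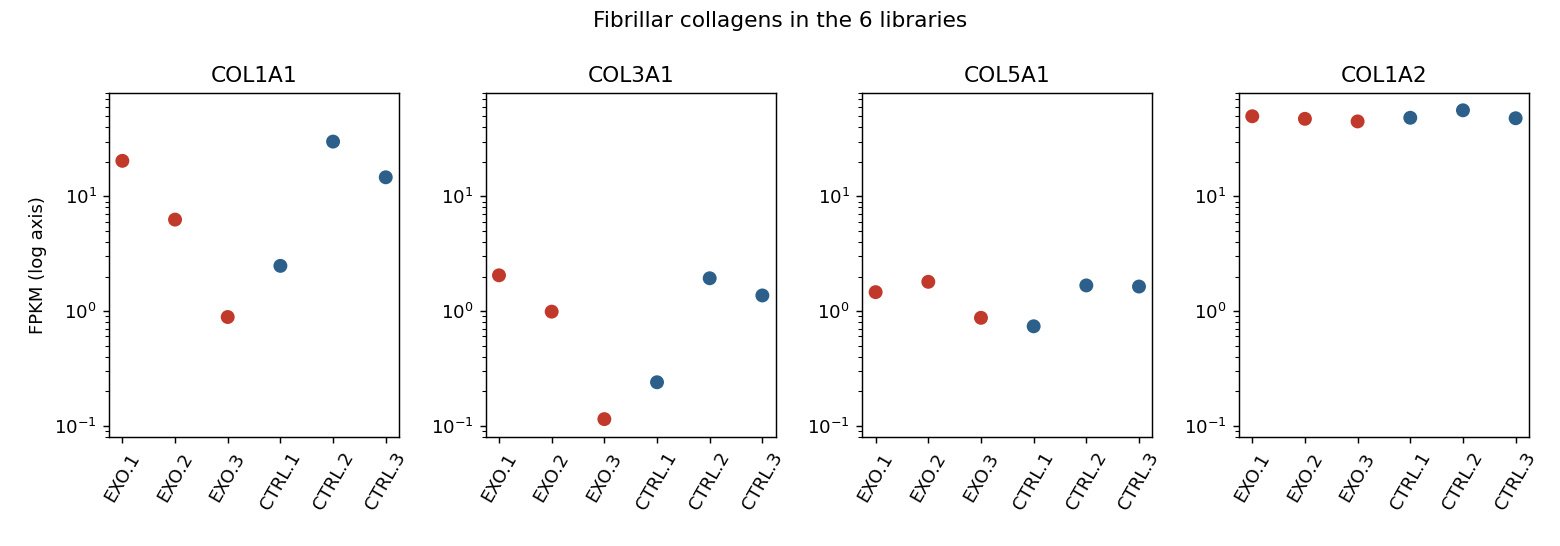
FPKM (log axis) of 4 fibrillar collagen chains in each library, exosome-treated in red and control in blue. COL1A1, COL3A1 and COL5A1 are lowest in EXO.3 and CTRL.1, while COL1A2 stays between 45.1 and 56.3 FPKM.

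Stromal markers were set beside these 3 collagens. The stromal marker sum was 2354, 2544 and 2599 FPKM in EXO.1, EXO.2 and EXO.3. It was 2875, 3102 and 3111 FPKM in CTRL.1, CTRL.2 and CTRL.3. Among the controls the sum was lowest in CTRL.1, where COL1A1 was low. Among the EXO libraries it was lowest in EXO.1, where COL1A1 was high, and highest in EXO.3, where COL1A1 was low. TCF21, a stromal transcription factor, was picked out with its values in view. It was at 1.06, 1.93 and 0.994 FPKM in EXO and 0.467, 1.78 and 2.19 FPKM in CTRL libraries, in the order 1 to 3. It too was lowest in CTRL.1 and EXO.3. The other 3 stromal genes had their lowest value of all libraries elsewhere. CD90 was at 1769, 1880 and 1897 FPKM in EXO and 2226, 2409 and 2350 FPKM in CTRL libraries. VIM was at 432.6, 532.4 and 550.8 FPKM in EXO and 511.3, 544.9 and 614 FPKM in CTRL libraries. S100A4 was at 151, 129.9 and 150 FPKM in EXO and 137.4, 146.4 and 144.9 FPKM in CTRL libraries. Over all libraries, CD90 and VIM were lowest in EXO.1 and S100A4 in EXO.2. Among the controls alone, all 3 were lowest in CTRL.1. Among the EXO libraries alone, EXO.3 was the highest for CD90 and VIM and close to the highest for S100A4. Fibromodulin (FMOD), a proteoglycan that binds collagen fibrils and was, like TCF21, picked with its values in view, was at 2.08, 1.51 and 0.436 FPKM in EXO and 0.514, 2.32 and 1.55 FPKM in CTRL libraries. Its lows again fell in EXO.3 and CTRL.1. The part of other cells in this pattern was not tested.

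The collagen IV chains varied less than COL1A1, COL3A1 and COL5A1. Collagen IV, the net of the basement membrane, was represented by COL4A1 and COL4A2, which lie side by side on chromosome 11 (76858332 to 76997409 and 76996885 to 77161617, Sscrofa11.1) with annotated spans that overlap by 525 bases. How reads in such an overlap were assigned is not stated. COL4A1 was at 16.3, 18.5 and 13.7 FPKM in EXO.1, EXO.2 and EXO.3, against 14.4, 14.9 and 15.0 FPKM in CTRL.1, CTRL.2 and CTRL.3. COL4A2 was at 12.3, 14.1 and 11.6 FPKM in EXO and 12.1, 12.1 and 11.6 FPKM in CTRL libraries. EXO.2 was the highest library for both, and the CTRL libraries lay close together inside the EXO range or at its edge (adjusted p = 0.664 and 0.709, limma). The pair kept nearly 1 ratio, COL4A1 over COL4A2 being 1.27 ± 0.077 in EXO and 1.24 ± 0.057 in CTRL libraries (SD, n = 3 each).

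COL18A1, a basement membrane collagen whose end fragment is endostatin, had the largest positive change among collagens. It was at 1.77, 1.35 and 0.952 FPKM in EXO.1, EXO.2 and EXO.3, against 0.658, 0.796 and 1.23 FPKM in CTRL.1, CTRL.2 and CTRL.3, so that 2 EXO libraries lay above all CTRL libraries and the third lay among them (log2 change 0.31, adjusted p = 0.480, limma). COL8A1, a short-chain network collagen, was at 1.497, 1.698 and 1.298 FPKM in EXO and 1.695, 1.19 and 1.14 FPKM in CTRL libraries, with overlap. Of the chains named through the reference table, COL17A1 was at 761.5, 890.8 and 762.6 FPKM in EXO and 783.3, 826.3 and 833.6 FPKM in CTRL libraries. EXO.2 alone lay above the controls. COL12A1, a collagen that decorates fibrils, likewise had EXO.2 alone above the controls, at 43.2, 52.7 and 38.5 FPKM in EXO and 39.1, 48.8 and 47.5 FPKM in CTRL libraries.

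Among laminins, the γ1 chain LAMC1 (ENSSSCG00000015555; chromosome 9, 124283668 to 124405967, Sscrofa11.1), shared by most laminin trimers, was the member with the smallest p. It was at 86.5, 82.0 and 75.4 FPKM in EXO.1, EXO.2 and EXO.3, against 66.8, 73.9 and 69.2 FPKM in CTRL.1, CTRL.2 and CTRL.3. The lowest EXO library lay just above the highest CTRL library, so the groups did not overlap. This was so for 1 of 27 members, against 8.29% of all genes tested, and 0 members lay wholly below the controls, against 10.4%. The log2 change was 0.21 with an SE of 0.065 and a 95% interval from 0.061 to 0.36, and it did not pass over all genes (unadjusted p = 0.0121, adjusted p = 0.303, limma). Leaving out any 1 library gave log2 changes from 0.17 to 0.27.

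LAMB1, the β1 chain that pairs with γ1, was at 38.5, 39.3 and 34.5 FPKM in EXO.1, EXO.2 and EXO.3, against 33.6, 34.6 and 33.3 FPKM in CTRL.1, CTRL.2 and CTRL.3. EXO.3 lay within the CTRL range and the other 2 EXO libraries above it (log2 change 0.14, adjusted p = 0.402, limma). LAMC1 stood 2.17 ± 0.078 times as high as LAMB1 in EXO and 2.07 ± 0.075 times in CTRL libraries (SD, n = 3 each), a ratio that overlapped between groups. LAMB2, the β2 chain that can take the place of β1, was at 31.1, 34.9 and 32.2 FPKM in EXO and 33.1, 32.8 and 32.7 FPKM in CTRL libraries. The β1 and β2 transcripts were thus present at similar levels, and the LAMB2 groups overlapped.

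LAMA3 and LAMB3, which encode the α3 and β3 chains of the epithelial laminin that anchors hemidesmosomes, were higher per length than LAMB1, LAMB2 and LAMC1. LAMB3 was at 87.0, 113.4 and 104.1 FPKM in EXO.1, EXO.2 and EXO.3, against 109.6, 107.6 and 101.7 FPKM in CTRL.1, CTRL.2 and CTRL.3. LAMA3 was at 127.6, 163.3 and 116.0 FPKM in EXO and 123.1, 132.9 and 129.2 FPKM in CTRL libraries. Both chains were highest in EXO.2, with EXO.1 the lowest library for LAMB3 and EXO.3 for LAMA3, and neither passed the test (log2 changes -0.074 for LAMB3 and 0.064 for LAMA3). LAMA4, an α chain best known from vessel walls, was at 14.9, 18.8 and 13.1 FPKM in EXO and 14.5, 15.0 and 15.6 FPKM in CTRL libraries, with EXO.2 again highest.

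Laminin receptors led the integrins. ITGA3 (ENSSSCG00000017578), whose protein pairs with β1 to bind laminin, was at 1004, 1009 and 972 FPKM in EXO.1, EXO.2 and EXO.3, against 910.3, 983.8 and 922.9 FPKM in CTRL.1, CTRL.2 and CTRL.3. EXO.3 lay between CTRL.3 and CTRL.2, so the groups overlapped (log2 change 0.084, adjusted p = 0.493, limma). ITGA6, the α chain of the hemidesmosome receptor, was at 704.6, 729.3 and 683.3 FPKM in EXO and 667.3, 790.2 and 783.2 FPKM in CTRL libraries, with the EXO libraries inside the CTRL range. ITGB4, its β chain with a long tail that reaches the keratin network, was at 137.3, 138.6 and 149.2 FPKM in EXO and 141.2, 149.1 and 140.1 FPKM in CTRL libraries. ITGA6 stood 4.58-fold to 5.26-fold above ITGB4 in EXO and 4.73-fold to 5.59-fold in CTRL libraries.

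ITGB1, the β chain shared by receptors for laminin, collagen and fibronectin, was at 452.7, 486.3 and 447.5 FPKM in EXO.1, EXO.2 and EXO.3, against 417.3, 451.7 and 464.6 FPKM in CTRL.1, CTRL.2 and CTRL.3. Its groups overlapped, with a log2 change of 0.057 (adjusted p = 0.710, limma). ITGA2, the collagen-binding α chain of epithelia, was at 54.5, 60.3 and 49.1 FPKM in EXO and 45.7, 56.1 and 57.9 FPKM in CTRL libraries. ITGA10, a collagen receptor chain known from cartilage, was at 0.738, 0.755 and 1.93 FPKM in EXO and 0.969, 1.21 and 1.000 FPKM in CTRL libraries, and EXO.3 alone stood high. ITGA5, the fibronectin receptor chain, was at 2.67, 1.76 and 2.09 FPKM in EXO and 1.56, 1.85 and 1.74 FPKM in CTRL libraries. EXO.1 and EXO.3 lay above the controls and EXO.2 among them (log2 change 0.22, adjusted p = 0.511, limma).

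The αV integrins, which bind ligands with an RGD motif and activate latent TGF-β, gave no passing member. ITGAV was at 66.7, 72.6 and 51.1 FPKM in EXO.1, EXO.2 and EXO.3, against 57.1, 64.5 and 65.3 FPKM in CTRL.1, CTRL.2 and CTRL.3. EXO.2 was the highest and EXO.3 the lowest of all libraries. Its epithelial partner ITGB6 had the same extremes, at 21.2, 27.9 and 19.4 FPKM in EXO and 21.8, 23.9 and 23.7 FPKM in CTRL libraries. ITGB5, a vitronectin receptor chain, was at 27.3, 32.2 and 28.6 FPKM in EXO and 31.3, 33.8 and 32.6 FPKM in CTRL libraries. EXO.1 and EXO.3 lay below all controls and EXO.2 among them (log2 change -0.15, adjusted p = 0.435, limma). ITGB8 was at 10.9, 13.5 and 10.7 FPKM in EXO and 10.6, 14.6 and 14.4 FPKM in CTRL libraries, and CTRL.1 was as low as EXO.1 and EXO.3. ITGB3, the β chain studied as a marker of uterine receptivity, was at 12.6, 16.7 and 12.4 FPKM in EXO and 13.4, 13.2 and 14.6 FPKM in CTRL libraries. Its log2 change was 0.0051.

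ITGA8, an RGD receptor chain known from the developing kidney, was at 1.01, 1.24 and 0.811 FPKM in EXO.1, EXO.2 and EXO.3, against 0.544, 0.562 and 0.643 FPKM in CTRL.1, CTRL.2 and CTRL.3. The groups did not overlap at these low levels. It lay under the filter, and with no filter its log2 change was 0.35 (unadjusted p = 0.0177, adjusted p = 0.320, limma). Integrin chains best known from leukocytes were also listed. ITGAE, which pairs with β7 on lymphocytes within epithelia and binds E-cadherin, ranged from 7.51 to 11.0 FPKM in EXO and from 7.50 to 9.31 FPKM in CTRL libraries. ITGAL ranged from 6.16 to 6.83 FPKM in EXO and from 5.94 to 6.56 FPKM in CTRL libraries. The pan-leukocyte marker PTPRC matched no row, which does not show its absence, since some rows have no name. Of the 2 genes that are no chains, ITGB1BP1 averaged 20.9 FPKM in EXO and 22.3 FPKM in CTRL libraries. COL4A3BP ranged from 26.96 to 30.2 FPKM in EXO and from 25.3 to 29.8 FPKM in CTRL libraries. Neither passed (adjusted p = 0.617 and 0.971, limma).

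Across the families, libraries of 1 group differed from each other and EXO.2 often held the highest value, a pattern noticed with the values in view. Over all genes tested, the SD of the log2 ratio of EXO.2 to EXO.1 and EXO.3 was 0.244 and 0.251. To CTRL.1, CTRL.2 and CTRL.3 it was 0.231, 0.203 and 0.201, so EXO.2 lay nearer to the controls than to its own group. EXO.2 was the highest of the 6 libraries in 14 of 27 members (51.9%), against 17.2% of all genes tested, and the lowest in 0, against 19% of all genes. It was the highest in all 5 chains named through the reference table. CTRL.1 was the lowest library in 10 of 27 members (37.0%), against 16% of all genes. EXO.3 was the lowest in 7 members, against 17.5% of all genes, EXO.1 in 5, against 21.8%, CTRL.3 in 4, against 15.9%, and CTRL.2 in 1, against 9.86%. The other highest values fell in EXO.1 and CTRL.2 for 5 members each, against 21.2% and 15.7%, in EXO.3 for 2, against 18.8%, in CTRL.1 for 1, against 14.4%, and in CTRL.3 for 0, against 12.7%. The EXO.2 count was 14 with upper quartile scaling (20.6% of all genes) and 12 with quantile normalization (18.6% of all genes). The CTRL.1 count was 10 with each (17.75% and 14.9% of all genes). These shares are a description, since the members come from the same 6 libraries and are not independent.

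**Figure D4:**
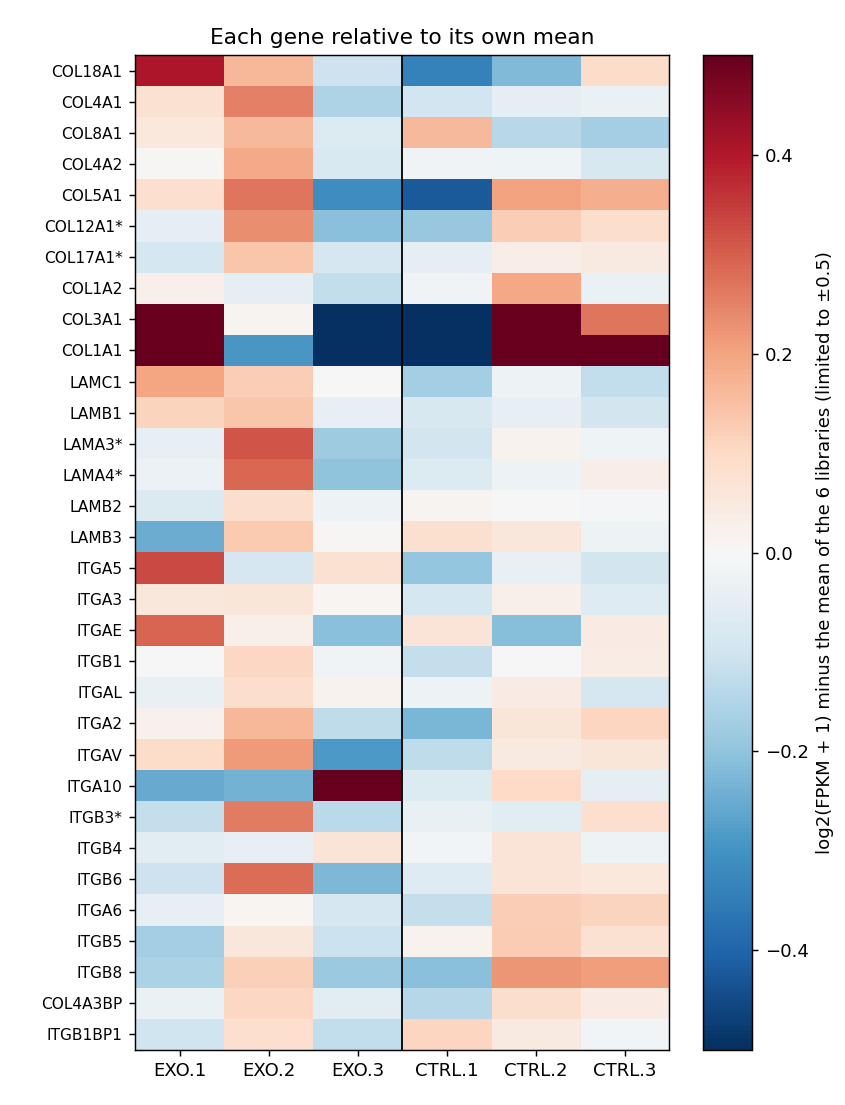
Level of each gene tested, as log2(FPKM + 1) minus its mean over the 6 libraries, with colours limited to ±0.5; columns left of the line are exosome-treated and columns right of it are controls, and an asterisk marks chains named through the reference table. EXO.2 is red for most genes, EXO.3 and CTRL.1 are mostly blue, and COL1A1, COL3A1 and, in EXO.3, ITGA10 exceed the colour limits.

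**Figure D5:**
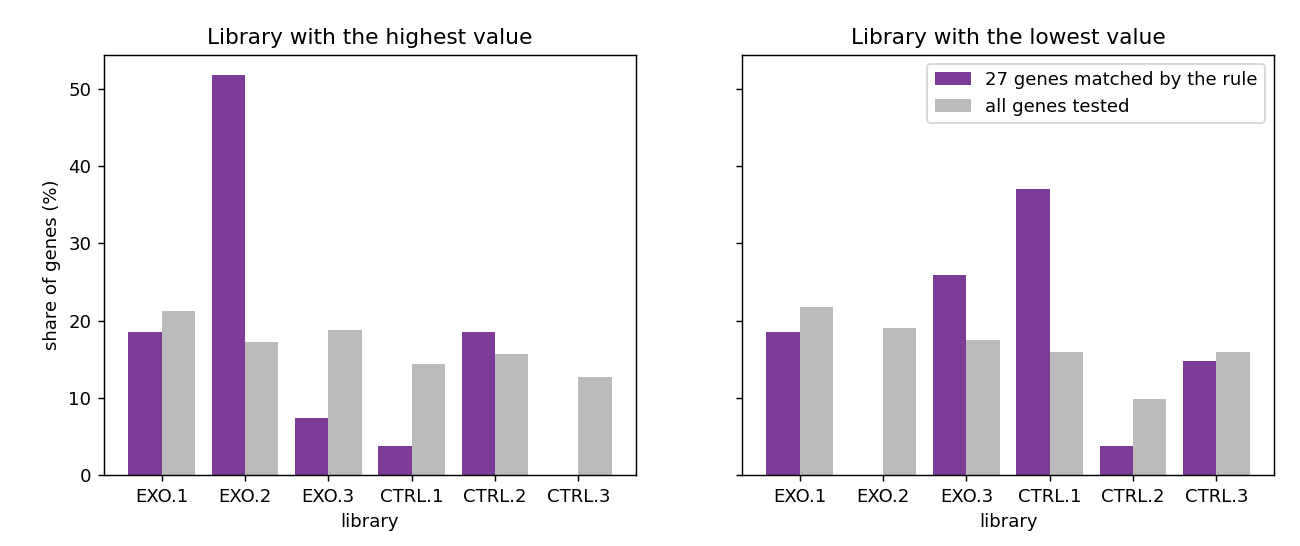
Share of genes (%) in which each library had the highest or the lowest of the 6 values, for the 27 members tested (purple) and all 10846 genes tested (grey). EXO.2 is highest in 51.9% of members against 17.2% of all genes, and CTRL.1 is lowest in 37.0% against 16%.

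The family medians differed by library. Relative to the control mean, the collagen median was 0.12, 0.22 and -0.13 (log2) in EXO.1, EXO.2 and EXO.3, and -0.12, 0.082 and 0.11 in CTRL.1, CTRL.2 and CTRL.3. For laminins it was 0.054, 0.15 and 0.00013 in EXO and 0.0011, 0.025 and -0.018 in CTRL libraries. For integrins it was -0.015, 0.061 and -0.11 in EXO and -0.083, 0.063 and 0.035 in CTRL libraries. In collagens and laminins the EXO.1 and EXO.2 medians lay above every control, while in integrins no EXO median did. When EXO.2 was left out, 297 genes (2.74%) passed over all genes tested, and 0 of the 27 members were among them. Leaving out any other library gave 0 or 1 passing genes. The adjusted p-values without EXO.2, here and below, do not account for the choice of that library. Without EXO.2, LAMC1 and ITGA5 were higher at an unadjusted p under 0.05, against 10.2% of all genes, and ITGB5, ITGB6 and ITGB1BP1 were lower, against 11.8%. Among the cell type markers, CD24, ELF3, CLDN4, CD90 and TAGLN passed without EXO.2, all lower in EXO (log2 changes -0.63 to -0.28, limma). In TAGLN the EXO.2 library that was left out, at 140.1 FPKM, lay within the control range. The part of these markers in the member values was not tested.

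The other genes that make, bind or cut the matrix were read from 8 lists, in which no gene passed the test over all genes (limma). Their counts stand against 5338 positive changes among the 10846 genes tested, and against the 5.06% (higher) and 7.5% (lower) of all genes with an unadjusted p under 0.05. Groups that do not overlap stand against 8.29% (EXO above) and 10.4% (EXO below) of all genes tested. Beside the genes said below not to overlap, the groups of THBS1, FREM2 and TES (EXO above) did not overlap. The same held for MFGE8, MMP15, MMP7, RSU1, PCOLCE and CTSB (EXO below). Of 12 genes that fold and modify collagen, 11 had positive changes, with a median log2 change of 0.044, and 2 were higher at an unadjusted p under 0.05. PLOD2, a lysyl hydroxylase, was at 13.8, 12.9 and 14.1 FPKM in EXO and 12.3, 11.6 and 10.4 FPKM in CTRL libraries (adjusted p = 0.307). P4HA3, a prolyl hydroxylase subunit, was at 5.07, 4.38 and 4.68 FPKM in EXO and 4.33, 3.13 and 3.68 FPKM in CTRL libraries. The groups of both genes did not overlap, and PLOD1, the third by p, had a log2 change of 0.18. Of 4 genes that process and crosslink collagen, 0 reached that p, and the median was -0.014. PCOLCE, LOX and LOXL4 had log2 changes of -0.090, 0.14 and -0.021.

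Among 8 other basement membrane genes, 1 was higher at an unadjusted p under 0.05 and the median log2 change was 0.048. This was HSPG2, which encodes the proteoglycan perlecan and was at 137.1, 127.2 and 124.3 FPKM in EXO and 106.1, 116.7 and 113.1 FPKM in CTRL libraries (log2 change 0.21, adjusted p = 0.278, limma). Like LAMC1 and 8.29% of all genes tested, it had all EXO libraries above all CTRL libraries. FBLN1 and FREM2 had log2 changes of 0.17 and 0.13. Of 10 other integrin ligands, THBS1 was higher and MFGE8 lower at that p, with a median log2 change of 0.055. THBS1, thrombospondin, was at 550.3, 628 and 501 FPKM in EXO and 390.9, 490.6 and 484.2 FPKM in CTRL libraries, and MFGE8 had a log2 change of -0.20. SPP1, osteopontin, a known RGD ligand at the pig uterine surface, was at 990.6 to 998.5 FPKM in EXO and 904.2 to 968.1 FPKM in CTRL libraries, with a log2 change of 0.095 (adjusted p = 0.408, limma). Its groups, too, did not overlap.

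Of 4 other collagen receptors, DDR2, a receptor tyrosine kinase that binds fibrillar collagen, was higher at an unadjusted p under 0.05, with a median log2 change of -0.023 over the list. It was at 6.42, 8.48 and 6.76 FPKM in EXO and 4.35, 5.49 and 5.62 FPKM in CTRL libraries (log2 change 0.42, adjusted p = 0.289, limma). Its groups did not overlap, and SDC4 and SDC1 had log2 changes of -0.13 and -0.060. Of 4 hemidesmosome partners, 2 keratins were lower at that p, with a median log2 change of -0.17. KRT14 was at 28.9, 35.5 and 40.7 FPKM in EXO and 48.6, 50.8 and 56.0 FPKM in CTRL libraries (log2 change -0.56, adjusted p = 0.206), and KRT5, at 0.794 to 1.05 FPKM in EXO and 1.13 to 1.51 FPKM in CTRL libraries, had a log2 change of -0.27. The groups of both keratins did not overlap, unlike those of ITGB4, COL17A1, LAMA3 and LAMB3. DST, a linker of keratin filaments to the hemidesmosome, had a log2 change of 0.20.

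Of 20 genes of the integrin adhesion complex, 8 had positive and 12 negative changes, with a median of -0.028, and ZYX alone was lower at an unadjusted p under 0.05. ZYX, zyxin of focal adhesions, was at 97.4, 111.2 and 91.9 FPKM in EXO and 115.5, 114.4 and 110.7 FPKM in CTRL libraries (adjusted p = 0.366, limma). EXO.2 lay within the control range, and without EXO.2 the gene passed (log2 change -0.26, adjusted p = 0.0430, limma). RSU1 and KANK1 had log2 changes of -0.16 and 0.14. Of 17 matrix proteases and inhibitors, 2 were lower and 0 higher at that p, with a median of -0.093. TIMP-2, an inhibitor of matrix metalloproteinases, was at 136.2, 142.8 and 149.3 FPKM in EXO and 173.4, 176.9 and 173.2 FPKM in CTRL libraries. Its groups did not overlap (log2 change -0.29, adjusted p = 0.155, limma), and it too passed without EXO.2 (adjusted p = 0.0391, limma). PLAUR and ADAMTS1 also passed without EXO.2 (log2 changes -0.54 and -0.52), but EXO.2 was their highest library (251.3 and 55.6 FPKM). With all libraries their log2 changes were -0.30 and -0.17 (adjusted p = 0.531 and 0.816, limma). MMP15 and TIMP4 had log2 changes of -0.18 and -0.32.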

How the data were processed

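The authors deposited 1 table with a value per gene and library, taken as FPKM from Cufflinks after alignment with TopHat on Sscrofa11.1 (demultiplexed with bcl2fastq 1.8.4), per the submitters' processing notes. No header states the unit. TopHat and Cufflinks versions, gene annotation and filters: not given in the sources used here. Counts were not used here, and low values were checked for a common step of whole reads. For EXO.1 over CTRL.1, 21.3% of 150 low genes lay near ratios of small whole numbers, against 14.0% after random noise was added. For EXO.2 over EXO.3 it was 14.0% against 12.0%. The check gave no clear step, so depth is unknown and no count model was used. Of 10916 rows, 1 had no values, and the lowest other value was 0.0882 FPKM.

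Columns were matched to samples by title. Values were taken as log2(FPKM + 1), which understates changes of low genes, and the 10846 genes averaging 1 FPKM or more entered the test of EXO against CTRL, with limma 3.58.1 in R 4.3.3 (intensity trend, two-sided, Benjamini-Hochberg, threshold 0.05). The 95% intervals are from that fit and unadjusted. On simulated data for this comparison (10915 genes), limma found 38.8% of genes altered by 1.25-fold, 80.8% by 1.5-fold and 94% by 2-fold. It called 0.0678% of unaltered genes, and altered genes had 5 FPKM or more. The simulated noise was independent for each gene, without shifts of a library shared by many genes, so these shares may not hold for the real libraries.

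Members and lists were chosen with earlier results of these data known. Values per library are given for fibrillar collagens, the 2 highest and the up to 6 members of smallest p in each family, and the chains of the basement membrane and of the main epithelial receptors. Of each list, the 3 genes of smallest p are named, or, of cell type lists, the 3 with the highest mean. Also named are genes of the matrix lists whose groups did not overlap, and list genes that passed without EXO.2. Of 177 list symbols, 98 were found. For 5 of the list entries the reference table gives another symbol, and the deposited name was kept. These are COLGALT1 (NIBAN3 in the reference), CLDN3 (CLDN9), CTSL (CTSV), CYR61 (CCN1) and CTGF (CCN2). Positions were matched by symbol in the RefSeq gene table of Sscrofa11.1. Sequences and 1 further chain are not reported here. Python 3.11.15 and matplotlib 3.10.9 served for tables and figures.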

Additional observations from a re-analysis of the deposited data

How the results depend on the processing

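Alternatives were another pseudocount, 2 other filters, 2 scalings, no intensity trend, the replicate number as a block, each library left out in turn, and, added after the data were seen, other memberships. Members past the threshold numbered 0 under every one of these, while the genes past it ranged from 0 to 297 when 1 library was left out (297 without EXO.2, 1 without CTRL.3). Members higher at an unadjusted p under 0.05 numbered 3 with upper quartile scaling and 3 with quantile normalization, where ITGA3 and LAMB1 joined LAMC1, 2 with no filter, where ITGA8 joined, and 1 to 4 without 1 library. Members lower numbered 0 to 3 without 1 library.

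Deviations of same-numbered libraries from their group means had correlations across genes of 0.161, 0.144 and -0.07 for numbers 1, 2 and 3. Differently numbered pairs ran from -0.271 to 0.169. With deviations from means of so few libraries, this cannot settle whether the numbers pair the samples. With the replicate block, 1 member, ITGB5, was lower at an unadjusted p under 0.05, and 0 genes passed.

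The direction turned for some genes, among them COL1A1, whose log2 change of -0.84 became 0.067 without EXO.3. With upper quartile scaling the log2 change was 0.011 for COL12A1, 0.0066 for COL17A1, 0.0085 for ITGB4, 0.019 for LAMB2 and 0.0050 for LOXL4. With quantile normalization it was 0.00055 for LAMB2 and 0.026 for KRT19, and with a pseudocount of 0.1 it was -0.029 for ITGA10. Without 1 library, collagens ranged from -1.73 to 0.067 (COL1A1), -0.48 to 0.27 (COL3A1), -0.18 to 0.19 (COL5A1), -0.14 to 0.085 (COL12A1) and -0.095 to 0.018 (COL17A1). Laminins ranged from -0.077 to 0.17 (LAMA3), -0.096 to 0.15 (LAMA4), -0.053 to 0.028 (LAMB2) and -0.16 to 0.032 (LAMB3). Integrins ranged from -0.24 to 0.14 (ITGA10), -0.064 to 0.11 (ITGA2), -0.057 to 0.19 (ITGAE), -0.090 to 0.16 (ITGAV), -0.12 to 0.074 (ITGB3), -0.055 to 0.0097 (ITGB4) and -0.18 to 0.070 (ITGB6). The others were COL4A3BP (-0.057 to 0.056), CD14 (-0.18 to 0.12), LOXL4 (-0.084 to 0.016) and S100A4 (-0.033 to 0.075). The cause was not tested. The low levels of COL3A1, COL5A1, COL18A1 and ITGA10 and the unknown depth limit what their values can show.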
